A study of Mus musculus with 12 samples.

Results

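The adipocyte program of the gut wall was followed through 10 genes that mark fat cells: Adipoq, Retn, Cfd, Fabp4, Plin1, Plin4, Cidec, Lpl, Car3 and Pparg. They were taken by name, with earlier results of these data known. Of the 10, 7 had a probe set among the 11807 genes named on the arrays, namely Adipoq, Retn, Fabp4, Plin4, Lpl, Car3 and Pparg. Cfd, Plin1 and Cidec were not analysed here. The samples were total RNA from whole stomach and whole colon of untreated 16 week old C57BL/6 mice that were Spdef knockout (KO), heterozygous (HET) or wild type (WT). Each of the 6 groups of tissue and genotype had 2 arrays, and the 12 arrays are given singly. Spdef is an ETS family transcription factor of mucus-secreting epithelial cells, not of fat cells. The labels used here do not describe the knockout allele, the sex of the mice or whether each array is a mouse of its own, so p-values measure the spread between arrays.

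White fat cells store triglyceride in 1 large droplet and release fatty acids and protein hormones. They lie outside the muscle coat of the gut, in the mesentery and along the serosa. PPAR gamma, the product of Pparg, is the nuclear receptor that drives fat cell formation and activates genes such as Adipoq, Fabp4 and Plin4. It is also made by colonocytes and macrophages, and lipoprotein lipase is made by muscle and macrophages as well as by fat cells. In whole-tissue RNA, fewer cells of a type and less RNA per cell cannot be told apart.

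Promoter windows of the 250 bases before a gene's start were on hand for 4 of the 7 measured genes, from RefSeq on GRCm38.p6. Those of the 2 hormone genes, of Plin4 and of the 3 Pparg starts are shown, to set the starts of fat cell genes beside those of the receptor that drives fat cell formation. The searched letters, read on both strands, were AGGTCA, the nuclear receptor half-site, the PPAR-type direct repeat of AGGNCA with 1 base between its copies, the C/EBP-type TTGCNNAA, CCAAT and TATAAA. Capitals mark matches on either strand, and positions count back from the start, at -1 for the last base of the window. The Adipoq window is chr16:23146286-23146535 (plus strand), Retn is chr8:3655520-3655769 (plus) and Plin4 is chr17:56109783-56110032 (minus). The Pparg windows, all on the plus strand, are chr6:115360894-115361143, chr6:115362099-115362348 and chr6:115421816-115422065.
Adipoq: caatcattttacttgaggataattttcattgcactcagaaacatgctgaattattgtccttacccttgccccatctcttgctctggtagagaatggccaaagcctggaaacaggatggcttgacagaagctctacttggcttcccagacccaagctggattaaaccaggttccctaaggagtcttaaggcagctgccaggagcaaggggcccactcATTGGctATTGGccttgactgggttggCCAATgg
Retn: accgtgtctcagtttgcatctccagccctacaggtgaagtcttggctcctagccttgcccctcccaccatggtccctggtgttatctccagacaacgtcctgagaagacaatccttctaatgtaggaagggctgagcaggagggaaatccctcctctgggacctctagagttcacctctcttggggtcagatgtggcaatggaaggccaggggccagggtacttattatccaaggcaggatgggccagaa
Plin4: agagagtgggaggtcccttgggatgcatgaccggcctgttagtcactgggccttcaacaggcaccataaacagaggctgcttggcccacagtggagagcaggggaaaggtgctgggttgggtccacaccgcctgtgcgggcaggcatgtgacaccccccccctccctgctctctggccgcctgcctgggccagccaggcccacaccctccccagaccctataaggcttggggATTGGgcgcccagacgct
Pparg start 1: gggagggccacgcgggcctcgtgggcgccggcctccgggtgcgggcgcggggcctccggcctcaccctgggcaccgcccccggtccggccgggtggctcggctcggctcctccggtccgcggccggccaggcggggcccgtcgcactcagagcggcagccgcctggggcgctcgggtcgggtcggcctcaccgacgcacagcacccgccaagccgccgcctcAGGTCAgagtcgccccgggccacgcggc
Pparg start 2: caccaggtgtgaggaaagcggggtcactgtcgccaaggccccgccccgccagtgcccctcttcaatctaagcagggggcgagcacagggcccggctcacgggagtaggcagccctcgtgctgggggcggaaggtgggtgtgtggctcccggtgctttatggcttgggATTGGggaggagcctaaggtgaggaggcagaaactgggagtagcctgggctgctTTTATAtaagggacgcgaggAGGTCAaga
Pparg start 3: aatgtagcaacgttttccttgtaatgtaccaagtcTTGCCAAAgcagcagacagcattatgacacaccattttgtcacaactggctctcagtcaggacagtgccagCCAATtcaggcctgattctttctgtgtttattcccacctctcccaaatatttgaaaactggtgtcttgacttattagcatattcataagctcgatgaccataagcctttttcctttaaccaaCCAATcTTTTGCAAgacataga
Adipoq held 3 CCAAT matches, starting at -34, -27 and -7, and Plin4 held 1, at -18. Pparg start 1 held AGGTCA at -28, and start 2 held AGGTCA at -9, TATAAA at -29 and CCAAT at -83. Start 3 held CCAAT at -144 and -22 and TTGCNNAA at -215 and -16. Retn held none of the 5 motifs. CCAAT occurred in 33.8% of 32851 windows of this length and TTGCNNAA in 9.56%, against 14.0% for AGGTCA, 12.4% for TATAAA and 0.338% for the direct repeat, which none of these windows contained. Such matches describe letters only.

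Several arrays stood apart. Colon WT 2 had the lowest mean correlation with the other arrays of its tissue, 0.887 against 0.931 to 0.956 for the other colon arrays, and its small intestine marker genes summed to 71000, against 1250 in colon WT 1. For Xist, the RNA of the inactive X chromosome, stomach KO 2 was at 163 and colon KO 2 at 36, while the other 10 arrays were at 5160 to 7410. Spdef itself was at 449 and 380 in stomach KO, 518 and 476 in stomach HET and 566 and 481 in stomach WT, and at 525 and 594 in colon KO, 1220 and 880 in colon HET and 1990 and 413 in colon WT. Colon WT 2 therefore lay below both colon KO arrays for the targeted gene, and whether its probe set falls within the deletion was not known. Creb3l4, read beside it, was at 20.7 and 41.3 in stomach KO and 52.3 and 55.5 in colon KO. The HET and WT arrays had 260 to 612, with colon WT 2 at 260. In stomach the processing notes name RMA for both KO arrays and MAS5 for the other arrays. Yet each of the 12 arrays had a trimmed mean of 500.1 on a linear scale, and whether the notes are right was not known. If they are, a difference in processing and the KO genotype cannot be told apart there. Levels are normalized intensities on a linear scale, which compare arrays and not genes, and differences are on the log2(intensity + 16) scale.

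Adipoq encodes adiponectin, the hormone that fat cells secrete in the largest amounts. It was at 385 and 432 in stomach KO, 536 and 811 in stomach HET and 1270 and 1740 in stomach WT. The KO arrays lay below the HET arrays and these below the WT arrays, with no overlap. In colon Adipoq was at 1780 and 146 in KO, 2470 and 3430 in HET and 2390 and 3130 in WT. Colon KO 2 was by far the lowest array, colon KO 1 was also below the HET and WT arrays, and HET and WT overlapped.

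Retn encodes resistin, a second secreted hormone of mouse fat cells. Its levels were 74 and 66 in stomach KO, 104 and 97.7 in stomach HET and 84.4 and 138 in stomach WT. Both KO arrays lay below the filter level of 76.5, the 40th percentile of the probe sets, and the gene entered the test through the HET and WT arrays. In colon Retn was at 91.6 and 19.2 in KO, 305 and 325 in HET and 232 and 387 in WT. Here both KO arrays were below the other 4, which overlapped.

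Fabp4, the fatty acid binding protein of the fat cell cytoplasm, was at 3470 and 2940 in stomach KO, 3940 and 4660 in stomach HET and 5350 and 5690 in stomach WT. Its stomach groups were ordered as those of Adipoq, without overlap. In colon it was at 5220 and 1470 in KO, 6300 and 9540 in HET and 8040 and 8670 in WT. The KO arrays were the lowest, and the HET arrays spanned the WT arrays. Fabp4 is also made by capillary endothelium, whose marker genes, 5 of 6, summed to 906 to 1380 in stomach KO, 906 to 1280 in stomach HET and 1110 to 1250 in stomach WT. Plin4, a coat protein of nascent lipid droplets, was at 91.3 and 105 in stomach KO, 93.5 and 188 in stomach HET and 143 and 139 in stomach WT. It was at 259 and 73.2 in colon KO, 287 and 298 in colon HET and 330 and 271 in colon WT. KO and WT did not overlap in either tissue, but colon KO 1 lay close to colon WT 2.

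Car3, a carbonic anhydrase abundant in fat and in slow muscle, was at 2020 and 2320 in stomach KO, 2680 and 3840 in stomach HET and 5060 and 5860 in stomach WT. It took the same non-overlapping order as Adipoq and Fabp4. Car3 was at 5610 and 1030 in colon KO, 6980 and 9240 in colon HET and 7930 and 8150 in colon WT. Again the KO arrays were lowest, and HET and WT overlapped.

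Lpl encodes lipoprotein lipase, which frees fatty acids from circulating lipoproteins. It was at 6430 and 9010 in stomach KO, 5710 and 7530 in stomach HET and 7250 and 7670 in stomach WT. The 3 stomach groups overlapped. In colon it was at 2420 and 487 in KO, 2890 and 2970 in HET and 2200 and 2010 in WT. Colon KO 2 was low and colon KO 1 was above both WT arrays. Pparg was at 964 and 517 in stomach KO, 863 and 751 in stomach HET and 809 and 1200 in stomach WT, which overlapped. In colon it was at 1760 and 557 in KO, 1560 and 1040 in HET and 807 and 143 in WT. The low colon array for Pparg was colon WT 2, not colon KO 2.

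**Figure D1:**
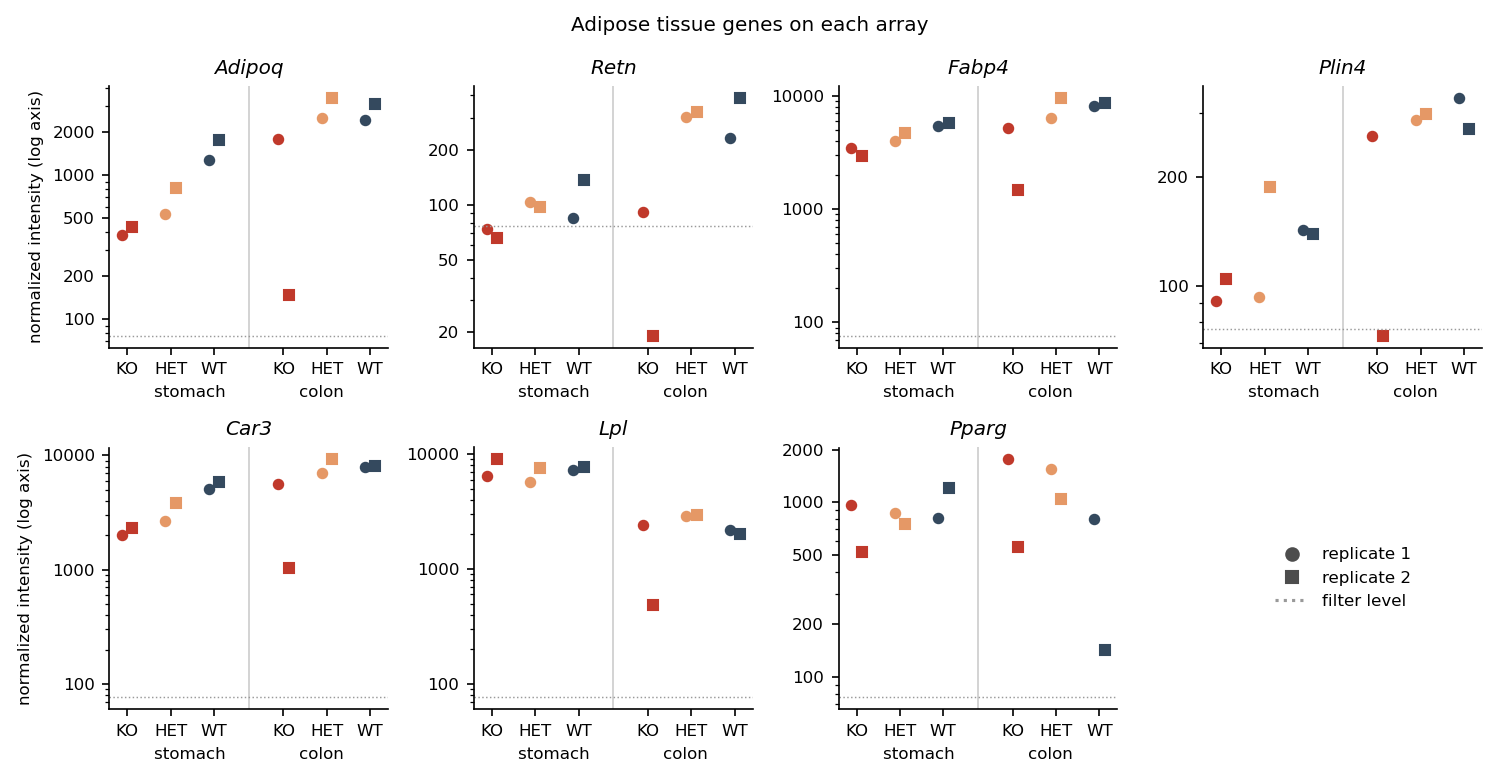
Normalized intensity (log axis) of the 7 genes on each array, by tissue and genotype, with circles for replicate 1, squares for replicate 2 and a dotted line at the filter level of 76.5. Adipoq, Fabp4 and Car3 step up through KO, HET and WT in stomach, and colon KO 2 is the lowest colon array for all genes but Pparg.

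Whether loss of Spdef went with a change in these genes was tested in a single limma fit of the 12 arrays, with Benjamini-Hochberg adjustment over all genes of the comparison and a threshold of 0.05. In stomach KO against WT, 0 of the 7 genes passed, and 0 had an unadjusted p under 0.05. The background was 0.0127% of 7858 genes called, with 289 genes at an unadjusted p under 0.05. Adipoq differed by -1.82 ± 0.84 (SE, n = 2 arrays each, limma adjusted p = 0.9995), a 3.54-fold lower level in KO. The Car3 difference was -1.32 ± 0.59, and that of Fabp4 was -0.78 ± 0.46. The bound for Retn, whose KO mean was below the filter level, was -0.43. Plin4 differed by -0.46, Pparg by -0.47 and Lpl by 0.03. The median of the 7 differences was -0.47 with Retn at its bound (-0.53 with its fitted difference), beside 0.01 over all genes tested.

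When the 6 stomach arrays were fitted alone, Adipoq (-1.84, limma adjusted p = 0.0267) and Car3 (-1.35, limma adjusted p = 0.0306) passed among 7 genes called, and Fabp4 (-0.80, limma adjusted p = 0.0625) did not. Both also passed without colon WT 2 and colon KO 2, at limma adjusted p = 0.017 and 0.0235. The differences themselves were close to those of the fit of 12 arrays. Both arrays of KO lay below both of WT for 5 of 7 genes, Adipoq, Car3, Fabp4, Plin4 and Retn, where this held for 16.7% of all genes tested. Retn had entered through the HET and WT arrays alone, and 4 of the other 6 genes showed this. For Adipoq, Car3 and Fabp4 the KO arrays were below the HET arrays and these below the WT arrays, an order found in 1.53% of all genes. The list was chosen with earlier results of these data known. These shares, and those of the comparisons below, therefore describe the list and do not test it.

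The other probe sets of 2 of these genes were read as well. A second Car3 probe set differed by -1.56 between KO and WT in stomach, and a second Fabp4 probe set by -0.72. For the second Fabp4 set the HET arrays, at 2320 and 2620, overlapped the WT arrays, at 2480 and 2630, while the KO arrays were at 1530 and 1560. The order through the 3 genotypes was thus not found by both Fabp4 probe sets.

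Comparisons with the heterozygotes share arrays with the one above. Stomach KO against HET gave -0.67 for Adipoq, -0.57 for Car3, -0.42 for Fabp4, -0.39 for Plin4, -0.18 for Pparg and 0.21 for Lpl, and the bound for Retn was -0.34. None of the 7 passed (limma adjusted p = 0.9999 for each), where 0.0127% of genes were called and 151 had an unadjusted p under 0.05. Both KO arrays were below both HET arrays for Adipoq, Car3 and Fabp4, 3 of the 6 genes besides Retn, against 13.5% of all genes, and the median difference was -0.39 with Retn at its bound, beside 0.01 over all genes. Stomach HET against WT gave -1.15 for Adipoq, -0.76 for Car3 and -0.36 for Fabp4, with -0.29 to -0.07 for the other 4. Again 0 of 7 passed in limma, 0% of genes were called and 178 had an unadjusted p under 0.05. The HET arrays were below the WT arrays for 3 of 7, Adipoq, Car3 and Fabp4, against 18.5% of all genes, with medians of -0.29 and -0.01.

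In colon, KO against WT gave larger differences that leaned on a single array. Against the filter level, the bound for Retn was -1.77 (limma adjusted p = 0.308). Adipoq differed by -2.36 ± 0.84 (limma adjusted p = 0.409) and Car3 by -1.74 ± 0.60 (limma adjusted p = 0.40). Fabp4 differed by -1.59 ± 0.46 (limma adjusted p = 0.320), Plin4 by -1.01, Lpl by -0.94 and Pparg by 1.48. Of the 7, 0 passed and 4 had an unadjusted p under 0.05, where 0.0505% of 7913 genes were called and 886 had an unadjusted p under 0.05. The median was -1.59, beside 0.06 over all genes.

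Without colon KO 2 the colon KO minus WT difference was -0.62 for Adipoq, -0.52 for Car3, -0.68 for Fabp4, -1.55 for Retn, -0.20 for Plin4, 0.20 for Lpl and 2.30 for Pparg. Without colon KO 1, colon KO 2 was the lone KO array of that tissue. The difference was then -4.09 for Adipoq, -2.95 for Car3, -2.50 for Fabp4 and -2.07 for Lpl. The lone Retn value of 19.2 is below the filter level, so that no difference beyond the bound is given. A lone array is assumed to vary as the other groups do. Without colon WT 1, which left colon WT 2 as the lone WT array, the Pparg difference was 2.66, and without colon WT 2 it was 0.29. The Pparg difference in colon thus turned on colon WT 2, and those of Adipoq, Car3, Fabp4, Plin4 and Lpl on colon KO 2. Retn kept -1.55 without colon KO 2, where the remaining KO array, at 91.6, was above the filter level and below the 232 to 387 of the other colon groups. Both KO arrays were below both WT arrays for 5 of 7 genes, Adipoq, Car3, Fabp4, Plin4 and Retn, against 10.6% of all genes. Without colon WT 2 it was the same 5, against 28.4% of all genes. On the values as deposited it was 4 of 7, without Plin4, against 10.5% of all genes. The second probe sets differed by -2.50 for Car3, -0.91 for Fabp4 and -1.33 for Lpl between colon KO and WT.

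Colon KO against HET, with the same KO arrays, gave -2.45 for Adipoq, -1.73 for Car3, -1.48 for Fabp4, -1.41 for Lpl, -0.98 for Plin4 and -0.36 for Pparg. The bound for Retn was -1.84 (limma adjusted p = 0.925). Without colon WT 2 and colon KO 2 its difference was -1.62, with a lone KO array. None of the 7 passed in limma, 5 had an unadjusted p under 0.05, and 0.0253% of genes were called, with 328 at an unadjusted p under 0.05. Both KO arrays were below both HET arrays for 6 of 7, all but Pparg, against 15.1% of all genes, with medians of -1.48 for the 7 and 0.02 for all genes. Colon HET against WT differed by -0.11 to 0.09 for Adipoq, Car3, Fabp4, Plin4 and Retn, by 0.48 for Lpl and by 1.84 ± 0.73 for Pparg (limma adjusted p = 0.511). Here 0 of 7 passed, 0.0253% of genes were called and 762 had an unadjusted p under 0.05, and the medians were 0.07 and 0.04.

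**Figure D2:**
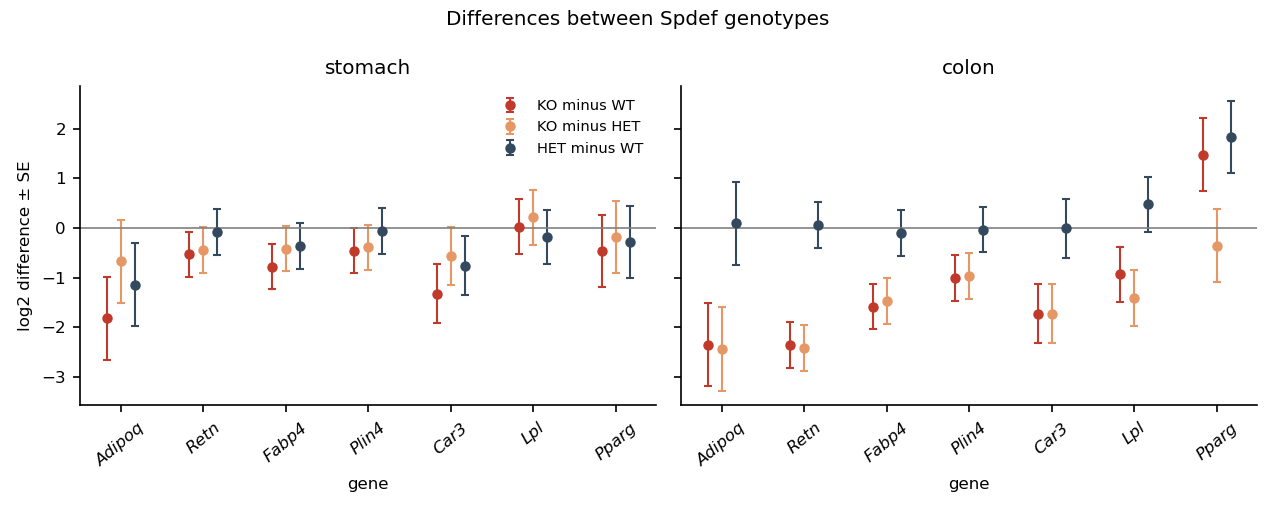
Log2 differences ± SE of the 7 genes between KO and WT, KO and HET, and HET and WT, in stomach (left) and colon (right), from the limma fit with 2 arrays per group. Adipoq and Car3 have the most negative KO minus WT differences in stomach, and in colon the KO differences are below 0 except that of Pparg between KO and WT. Retn is drawn at its fitted differences, although its KO means are below the filter level.

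Whether the KO difference itself differed between colon and stomach was tested as an interaction. No value is given for Retn, whose KO mean was below the filter level in both tissues. Pparg was at 1.95 (limma adjusted p = 0.886), and the other 5 lay from -0.97 for Lpl to -0.41 for Car3. None of the 7 passed, where 0.0237% of 8452 genes were called, and the median, with Retn at its fitted value, was -0.55, beside 0.05 over all genes. Without both KO arrays numbered 2, those with low Xist, the Adipoq value was 1.28 and that of Car3 0.90.

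Between the tissues, the 7 genes went different ways. Lpl was lower in colon than in stomach, by -1.92 ± 0.32 over the 3 genotypes (limma adjusted p = 0.00099), and its second probe set gave -2.01 (limma adjusted p = 0.000514). Plin4 was higher in colon, by 0.84 ± 0.27 (limma adjusted p = 0.0274), and so was Retn, by 0.79 ± 0.27 (limma adjusted p = 0.0358), although the KO mean of Retn was below the filter level in both tissues. Adipoq (1.11 ± 0.49, limma adjusted p = 0.0868), Car3 (0.68, limma adjusted p = 0.133), Fabp4 (0.42, limma adjusted p = 0.225) and Pparg (-0.11, limma adjusted p = 0.846) did not pass. So 2 of 7 were called higher, where 21.3% of 8452 genes were, and 1 of 7 lower, where 27% were, so the 3 calls are close to the background. These shares turned on colon KO 2: without it Adipoq (1.69, limma adjusted p = 6.79e-05), Car3 (1.08, limma adjusted p = 0.00017) and Fabp4 (0.72, limma adjusted p = 0.00145) were called higher in colon as well, and without colon KO 1 Adipoq was called (0.53, limma adjusted p = 0.0282). The median difference was 0.68, beside -0.05 over all genes.

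Per genotype the Lpl difference between colon and stomach was -2.79 in KO, -1.16 in HET and -1.82 in WT, and that of Adipoq was 0.34 in KO, 2.12 in HET and 0.88 in WT. Colon was the lower tissue for Lpl in every genotype, on all 12 arrays without overlap. For Adipoq all colon arrays but colon KO 2 were above all stomach arrays. The calls for Plin4 and Retn were lost in 7 and 10 of the alternatives tried, leaving out single arrays among them, while that for Lpl was kept in each.

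How the genes varied together was described by Pearson's r over the 12 arrays after removing each tissue's mean. Arrays share tissue dissection, RNA and scaling, and 1 low array can set such values, so r is also given without colon KO 2. Adipoq and Car3 had r = 1, after rounding, and 0.99 without that array. For Adipoq and Fabp4 it was 0.97, and 0.88 without. With Plin4 it was 0.91 and 0.63, and with Retn 0.89 and 0.59. Adipoq and Lpl had r = 0.85 with colon KO 2 and 0.16 without it. Pparg had r = 0.12 to Adipoq, -0.05 without colon KO 2 and 0.63 without colon WT 2, and over the 6 stomach arrays r was 0.52. Adipoq, Car3 and Fabp4 therefore varied together with or without colon KO 2, while the values for Lpl turned on that array and those for Pparg on colon WT 2. The mean level of the 7 genes per array, on the log2 scale, was 9.61 and 9.57 in stomach KO, 9.77 and 10.11 in stomach HET and 10.21 and 10.50 in stomach WT. It was 10.36 and 8.24 in colon KO, 10.77 and 10.92 in colon HET and 10.62 and 10.40 in colon WT.

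**Figure D3:**
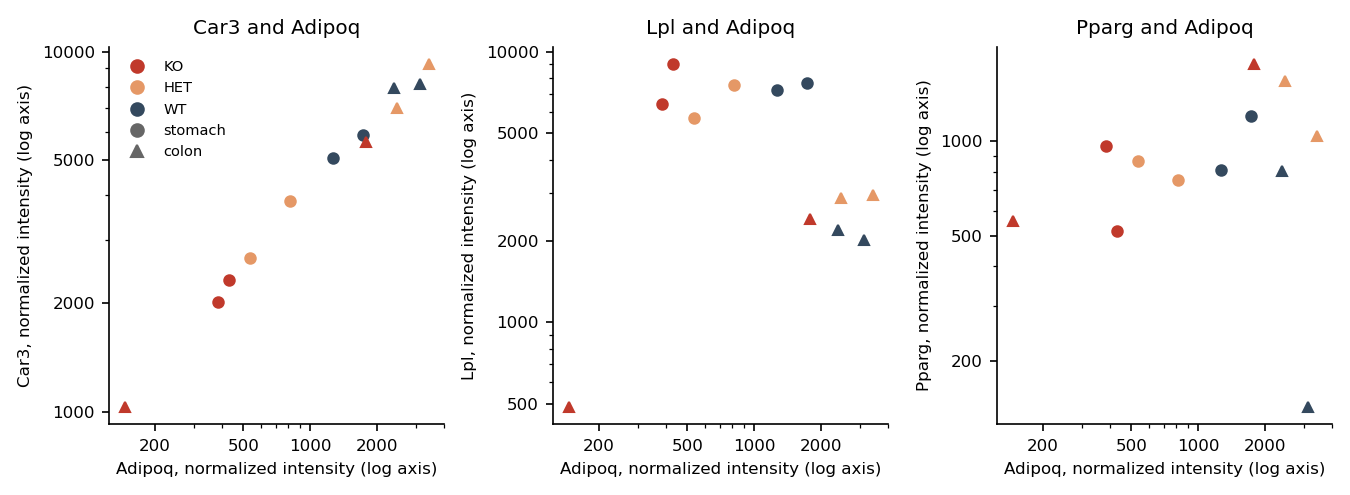
Normalized intensity of Car3, Lpl and Pparg against Adipoq on each array (log axes), with circles for stomach, triangles for colon and colours for KO, HET and WT. Car3 follows Adipoq over all 12 arrays, Lpl splits by tissue with colon KO 2 low for both genes, and in the Pparg panel colon WT 2 lies far below the other arrays.

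Other genes of the fat cell were read from lists of secreted factors, lipolysis, fatty acid and triglyceride synthesis, uptake, transcription factors and signalling, 43 genes of which 36 had a probe set. In stomach KO against WT, 27 passed the filter on low values, 22 of these had a negative difference, 0 were called and the median was -0.17 beside 0.01 over all genes. In colon KO against WT, 29 passed the filter, 24 were negative, 0 were called and the median was -0.41 beside 0.06. Most of them thus had a negative difference, as 6 of the 7 genes did in each of these comparisons, with medians nearer 0. Thrsp, a nuclear protein that promotes fatty acid synthesis, was at 360 and 406 in stomach KO, 568 and 1120 in stomach HET and 953 and 1590 in stomach WT, a KO minus WT difference of -1.65 ± 0.73 (limma adjusted p = 0.999). Scd1, the desaturase that makes monounsaturated fatty acids, was at 1000 and 1140 in stomach KO and 2080 and 4310 in stomach WT (-1.47, limma adjusted p = 0.999). Rbp4, the retinol carrier, differed by -0.81 (limma adjusted p = 0.999). Lep, the hormone leptin, was at 3.11 to 62.8 on the 12 arrays, below the filter level on each, and was not tested.

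In colon the largest KO minus WT differences on these lists were those of Thrsp (-2.65), Scd1 (-2.32), Angptl4, an inhibitor of lipoprotein lipase (-1.81), Lipe, hormone-sensitive lipase (-1.76), Gpd1, which supplies glycerol phosphate (-1.74), and Dgat1, which completes triglyceride (-1.70). Limma adjusted p was 0.32 to 0.449. Without colon WT 2 they were -1.52 for Thrsp, -1.38 for Scd1, -0.22 for Angptl4, -1.12 for Lipe, -0.12 for Gpd1 and -0.18 for Dgat1. The differences of Angptl4, Gpd1 and Dgat1 therefore rested on colon WT 2, the array with small intestine genes, whose part in them was not tested.

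Brown fat cells burn fatty acids for heat, and 5 of 6 genes of a brown fat list had a probe set. Ucp1, the uncoupling protein that defines this cell, was at 7.12 and 44.8 in stomach KO, 118 and 117 in stomach HET and 119 and 215 in stomach WT. All colon arrays had 1.02 to 4.11. The stomach KO arrays were below the filter level and the other 4 stomach arrays were above it, through which the gene entered the test, with a bound of -0.93 for KO minus WT (limma adjusted p = 0.548). Cox8b, a muscle and brown fat subunit of cytochrome oxidase, was at 6.93 and 62.6 in stomach KO, 103 and 143 in stomach HET and 184 and 246 in stomach WT. Its bound was -1.31 (limma adjusted p = 0.684). Cidea, a lipid droplet protein of brown fat, was at 77.4 and 94.5 in stomach KO, 167 and 166 in stomach HET and 154 and 178 in stomach WT (-0.84, limma adjusted p = 0.999). Cox8b, like Ucp1, had entered the test through the HET and WT arrays alone. For Cidea both KO arrays were below both WT arrays, where this held for 16.7% of all genes tested. Of the 3 genes, 0 passed in limma. Dio2, at 29.4 to 58.6 on the stomach arrays, and Elovl3, at 16.6 to 34.5, were below the filter level and not tested.

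**Figure D4:**
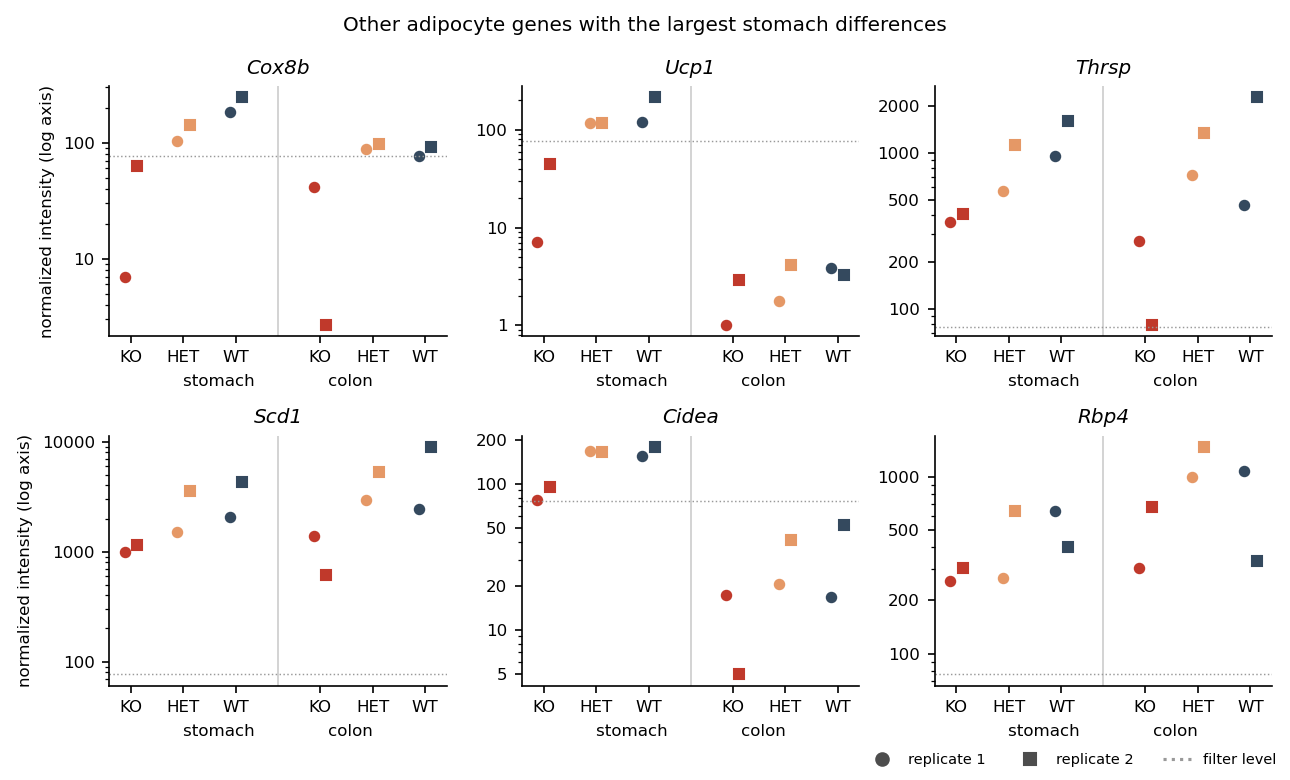
Normalized intensity (log axis) on each array of the 6 other fat cell genes with the largest KO minus WT difference in stomach, with circles for replicate 1, squares for replicate 2 and a dotted line at the filter level. Ucp1 is at 1.02 to 4.11 on the colon arrays and above the filter level on the HET and WT stomach arrays, and Rbp4 overlaps between HET and WT.

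Marker genes of other cell types were summed per array to see what else moved. Mesothelium, the layer that covers the serosa beside the fat, was measured by 3 of 5 markers, Msln, Upk3b and Wt1. They summed to 54.4 to 92.1 in stomach KO, 52 to 127 in stomach HET and 159 to 204 in stomach WT, and to 127 to 406 in colon KO, 332 to 552 in colon HET and 666 to 1290 in colon WT. KO and WT did not overlap in either tissue, and Upk3b gave most of the sum in WT. Among all genes tested, both KO arrays were below both WT arrays for 16.7% in stomach and 10.6% in colon. In stomach Msln and Wt1 were below the filter level of 76.5 on every array, and Upk3b on the KO and HET arrays. The stomach KO sums thus hold only values below that level. The part of attached serosal tissue in the values of the fat cell genes was not tested.

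Liver and pancreas, which adjoin the stomach, were read in the same way. Alb, the liver's serum albumin, was at 137 and 76.4 in stomach KO, 319 and 3210 in stomach HET and 5450 and 642 in stomach WT. Serpina1b, a liver protease inhibitor, was at 15 and 20.8 in stomach KO, 141 and 329 in stomach HET and 644 and 268 in stomach WT. Without Ttr, at 5500 to 6580 on every stomach array, the other 4 liver markers summed to 118 to 217 in stomach KO, 899 to 4110 in stomach HET and 1130 to 8610 in stomach WT, and with it to 5890 to 6000, 7480 to 10600 and 6630 to 15100. The 6 exocrine pancreas markers found, of 7, summed to 1280 to 10700 in stomach KO, 10600 to 14400 in stomach HET and 5930 to 7550 in stomach WT. Amy2a5 gave most of these sums, at 10500 and 1110 in stomach KO, 10400 and 14200 in HET and 7370 and 5790 in WT. The other markers of that list were at 1.63 to 90.9 on the stomach arrays. Both KO arrays thus had the lowest liver sums. Among all genes tested in stomach, both KO arrays were below both WT arrays for 16.7%. Serpina1b, Mup3 and Apoh were below the filter level of 76.5 on both KO arrays. Apoh was below it on other arrays too, at 59.3 in stomach HET 1 and 13.9 in stomach WT 2. It overlapped between KO, at 32.5 and 16.7, and WT. Pancreas sums overlapped between KO and WT in stomach. In colon they were 119 to 1000 in KO, 94.4 to 108 in HET and 107 to 132 in WT. The highest was that of colon KO 2, with Amy2a5 at 489 and Ctrb1 at 182. Lymphoid markers, 4 of 5, summed to 8460 to 14000 in colon KO, 8020 to 8380 in colon HET and 7560 to 8820 in colon WT. Colon KO 2 was again the highest. The part of liver, pancreas or lymphoid tissue in the stomach or colon values was not tested. Smooth muscle markers, 5 of 6, summed to 20900 to 22500 in stomach KO, 23500 to 24400 in stomach HET and 21800 to 22400 in stomach WT, and gastric gland markers to 95600 to 102000 on all stomach arrays against 72.3 to 146 on the colon arrays. Absorptive colonocyte markers, 5 of 6, summed to 45800 to 59300 on the colon arrays other than colon WT 2, which had 18700, with Car1 at 84.1 against 11600 to 16500. Aqp8 was also low there, at 30.6 against 435 to 5230. Slc26a3 was at 2150, Car4 at 2320 and Guca2a at 14100 on that array, against 1.26 to 222 on the stomach arrays. That array thus had low Car1 and Aqp8 but kept other markers of its labelled tissue. Fibroblast and preadipocyte markers, 6 of 7, summed to 4300 to 7060 in colon KO, 5980 to 7440 in colon HET and 8800 to 13600 in colon WT. The highest sum was that of colon WT 2, where Dpp4, which enterocytes also make, was at 8220 against 403 to 643 on the other colon arrays. Without Dpp4 the sums were 6480 and 3800 in colon KO, 7040 and 5510 in colon HET and 8160 and 5340 in colon WT, which overlapped.

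Among 7371 genes tested in both tissues, those most like the mean of the 7 genes were named by Pearson's r over the 12 arrays with tissue means removed. They were Scg2 (0.94), Usp15 (0.94), Eif3f (0.93), Cyp2e1 (0.93), Aldh1a1 (0.92), Sec14l1 (0.91), Mxi1 (0.90), Cd36 (0.89), Ifi202b (0.89) and Pon1 (0.89). Without colon KO 2 these values were 0.42 for Aldh1a1 to 0.81 for Cyp2e1. Cyp2e1, a cytochrome P450 of liver that fat also expresses, was at 148 and 256 in stomach KO, 413 and 862 in stomach HET and 1130 and 784 in stomach WT. It was at 774 and 84.5 in colon KO, 2100 and 2120 in colon HET and 1390 and 2060 in colon WT. Both KO arrays were its lowest in each tissue. Cyp2e1 was picked by its likeness to the 7 genes on these same arrays, so its levels describe that pick and test nothing. Cd36, a fatty acid transporter of fat, muscle and enterocytes, was at 1920 and 1660 in stomach KO and 2690 and 2220 in stomach WT.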

How the data were processed

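Total RNA from 12 whole-tissue samples was hybridized to Affymetrix mouse arrays, per the labels' protocols. The authors deposited 1 linear intensity for every probe set, with a trimmed mean of 500.1 on every array. The submitters' processing notes give RMA, without a version, for colon WT 1 and both stomach KO arrays, and MAS5 for the other 9, and no column was on a log scale. The number of arrays limits the precision.

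Of 22716 probe sets, 90 controls were left out, 18003 had 1 gene, 287 several and 4336 none. For a gene with several probe sets the brightest on average was used, which left 11807 genes. Values were taken as log2(intensity + 16) and quantile normalized. A gene was tested where at least 2 arrays of the tissue reached the 40th percentile (6.53 on the log2 scale, an intensity of 76.5), and a group mean below it gives a bound. The 6 group means were fitted with limma 3.58.1 in R 4.3.3 (6 residual and 3.47 prior degrees of freedom), with Benjamini-Hochberg adjustment at 0.05, and the fit was tested on simulated data. Figures used matplotlib 3.10.9 in Python 3.11.15.

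The members and the 23 gene lists (119 of 139 genes matched) were chosen with earlier results of these data known. Named are all members, of other fat cell lists up to 6 genes per tissue with the largest KO minus WT difference, and the 10 genes most like the members. Alternatives varied normalization, offset, filter, probe set, arrays and a replicate block, and those without both KO arrays numbered 2, or without colon WT 2 and colon KO 2, were chosen after seeing the data, as were the list sums without Ttr or Dpp4, the correlations without colon WT 2 and the medians with bounds.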

Additional observations from a re-analysis of the deposited data

How the results depend on the processing

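The labels do not say that replicate numbers pair samples, although the 2 arrays with low Xist are both KO arrays numbered 2. The correlation of replicate 1 minus replicate 2 over 7717 genes was 0.00, 0.05 and -0.21 between stomach groups, 0.29, -0.19 and 0.01 between colon groups, and 0.10, 0.03 and 0.08 between the tissues for KO, HET and WT, so the numbers were not taken as pairs. With the number as a replicate block, 0 genes were called for stomach KO minus WT, stomach KO minus HET, colon KO minus HET and the interaction (the KO minus WT difference in colon minus that in stomach). Between the tissues Retn (0.79) was no longer called under that block, and neither that block nor one of genotype and number changed another call of the 7 genes. Of the alternatives below, the causes of the shifts were not tested.

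Without quantile normalization stomach KO minus HET had 0 calls, Lpl was -0.08 in stomach KO minus WT and Plin4 0.04 in colon HET minus WT. With an offset of 64, stomach KO minus WT and KO minus HET had 0 calls, and the mean level was 9.81 and 9.78 in stomach KO and 9.95 in stomach HET 1. With an offset of 1, colon KO minus WT had 1 call, colon HET minus WT 0 and the interaction 0. With each tissue alone, stomach KO minus WT had 7 calls, colon KO minus WT 2 and colon KO minus HET 0, and Car3 was 0.00038 in colon HET minus WT. With every probe set tested there were 8 calls in colon KO minus WT, 4 in colon HET minus WT, 4 in the interaction and 7002 between tissues. The other Lpl probe set gave -0.24 in stomach KO minus WT and -0.01 in KO minus HET.

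Without both KO arrays numbered 2, an alternative added after seeing the data, there were 0 calls in both KO comparisons of each tissue and in the interaction. The members' median was -0.52 in colon KO minus WT and KO minus HET and 0.42 in the interaction, where Adipoq was 1.28, Car3 0.90, Plin4 0.35 and Lpl 0.42. Lpl was -0.21 and -0.03 in stomach KO minus WT and KO minus HET and 0.20 in colon KO minus WT, and Pparg was 0.26 in stomach KO minus HET, 0.46 in colon KO minus HET and 0.02 between tissues. Without colon WT 2 and colon KO 2, also added, calls were 13 (stomach KO minus WT), 2 (stomach HET minus WT), 174 (colon KO minus WT), 58 (colon KO minus HET), 34 (colon HET minus WT) and 45 (interaction). The medians were then -0.43 and -0.52 in the colon KO comparisons and 0.16 in the interaction, where Adipoq was 1.40, Car3 0.83, Fabp4 0.16, Plin4 0.13 and Lpl 0.11. Lpl was 0.14 in colon KO minus WT, Pparg 0.46 in colon KO minus HET and 0.56 between tissues (limma adjusted p = 0.0332), and Car3 0.02 in colon HET minus WT.

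Leaving out single arrays gave 0 to 10 calls for stomach KO minus WT, 0 to 21 for KO minus HET, 3 to 977 for colon KO minus WT, 0 to 27 for KO minus HET, 2 to 1072 for HET minus WT and 0 to 396 for the interaction. The largest were without stomach HET 2 (10 and 21), without colon WT 1 (977, 1072 and 396) and without colon KO 1 (27). The members' medians ran from -0.90 to -0.48, -0.54 to -0.30 and -0.48 to -0.15 in stomach KO minus WT, KO minus HET and HET minus WT, from -2.50 to -0.52 and -2.55 to -0.52 in colon KO minus WT and KO minus HET, and from -1.71 to 0.26 in the interaction. Signs turned in the interaction for Adipoq (-2.27 to 1.20), Car3 (-1.63 to 0.81), Fabp4 (-1.71 to 0.11), Plin4 (-1.36 to 0.26) and Lpl (-2.10 to 0.17). In colon HET minus WT they turned for Adipoq (-0.15 to 0.33), Car3 (-0.20 to 0.20), Fabp4 (-0.41 to 0.19), Plin4 (-0.17 to 0.10) and Retn (-0.29 to 0.42). Lpl ran from -2.07 to 0.20 in colon KO minus WT, from -0.21 to 0.27, -0.03 to 0.46 and -0.38 to 0.01 in stomach KO minus WT, KO minus HET and HET minus WT. Plin4 ran from -0.84 to 0.06 and -0.52 to 0.38 in stomach KO minus HET and HET minus WT, and Retn from -0.40 to 0.22 in HET minus WT. Pparg ran from -0.62 to 0.26 in stomach KO minus HET, from -1.17 to 0.46 in colon KO minus HET and from -0.51 to 0.28 between tissues.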

Other observations

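Within stomach alone, over 6 arrays, the genes closest to the mean of the 7 fat cell genes were Rab8a (r = 0.99), Id4, Flcn, Thrsp and Eif3f (0.98 each), of 7371 genes. Id4, a helix-loop-helix inhibitor, was at 217 and 231 in stomach KO, 271 and 383 in stomach HET and 495 and 555 in stomach WT. Its levels, too, follow from how it was picked on these arrays. Within colon they were Scgn (r = 1 after rounding), Rdh14, Usp15, Mgst2 and Xist (0.98 each). Without colon KO 2 these were 0.91, 0.43, 0.73, 0.51 and 0.13. Adig, a fat cell gene below the filter in stomach and named after its values were seen, was at 3.38 and 8.57 in stomach KO, 68.9 and 69.1 in stomach HET and 64.4 and 115 in stomach WT.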
